A study of Mus musculus with 12 samples.

Results

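Bmp2, 3 receptor genes of the bone morphogenetic protein (BMP) pathway (Bmpr1a, Acvrl1 and Bmpr2), the inhibitory Smad genes Smad6 and Smad7, and the target genes Id1, Id2 and Id3 were followed across 12 RNA-seq libraries of mouse bone-marrow-derived macrophages. These 9 genes were taken by symbol from a table of 48440 genes, and the set was selected on measured values, since it was chosen by the higher levels of Bmp2 and Id3 in the libraries labelled CKO. The differences between CKO and WT are therefore given for the members as a description, with no test.

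The 6 groups had 2 libraries each. CKO macrophages were treated with interferon-gamma (IFN-γ, 100 U/mL), treated with IL-4 (20 ng/mL) or left untreated, and WT macrophages had the same 3 conditions, with a treatment time of 24 h. IFN-γ is a lymphocyte cytokine that activates macrophages against microbes, and IL-4 is a cytokine of allergic and repair responses. Of the purpose, the title says that IRF8, a transcription factor of myeloid cells, was studied in an anti-metastatic program in breast cancer. The labels do not say which gene the CKO libraries lack or which promoter drove a deletion. They also leave unsaid whether both libraries of a group were grown from separate mice, so p-values measure only how far libraries spread, and part of that may be technical. Libraries were prepared with an exome capture kit, in which probes pull down coding RNA.

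Irf8 was higher in the libraries labelled CKO, with 139 to 1200 CPM (the reads of a gene scaled to a common library total) against 65.7 to 513 CPM in the libraries labelled WT, which goes against the label if it stands for loss of the whole Irf8 transcript. Lyz2, the lysozyme gene of macrophages, had 12.6 to 28 CPM in CKO libraries and 5840 to 11900 CPM in WT libraries. CKO and WT below therefore mean the libraries that carry these labels. Totals ran from 21287725 to 32717379 counts per library. The sum of 8 macrophage markers, such as Csf1r and Adgre1, lay between 4190 and 5450 CPM in CKO libraries and between 3440 and 4150 CPM in WT libraries. Untreated CKO library 1 stood apart, with 1.52% of its counts in mitochondrial genes, where the other 11 libraries had 2.12% to 3.25%.

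BMPs are secreted dimers of the TGF-β superfamily that bring type I and type II receptor kinases together. The type II receptor phosphorylates the type I receptor, which phosphorylates Smad1, Smad5 and Smad9, and these enter the nucleus with Smad4 and switch on target genes. Id genes are classic targets of this route. Their products are helix-loop-helix proteins without a DNA-binding region that hold E proteins away from DNA. Smad6 and Smad7 are also induced by the pathway and block it, Smad6 mainly at BMP receptors and Smad7 at both BMP and TGF-β receptors. In mice, Id2 is required for type 1 conventional dendritic cells, and Id3 for the Kupffer cells of the liver.

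All 9 members passed the filter on low counts, which kept 16292 genes. Set against transcript length, Id2 had the highest mean level over the 12 libraries, 47.4 CPM per kb of exon, followed by Id3 with 20.7, Id1 with 10.8, Bmpr2 with 8.32 and Acvrl1 with 7.35 CPM per kb. Smad6 had 2.83, Smad7 1.26, Bmp2 0.496 and Bmpr1a 0.164 CPM per kb. Probe capture differs between genes, so this order also depends on the probes. The lengths cover all exons, untranslated parts included, while the kit pulls down coding RNA, so the order depends on that divisor too. Before division by length Bmpr2 was the highest member, with a mean of 150 CPM against 116 CPM for Id2. All other values below are CPM scaled to library size by TMM, or log2 fold changes ± SE.

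The ligand gene Bmp2 was low in all libraries and higher in CKO than in WT under each condition. It lies on chromosome 2 (GRCm38, 133552159 to 133562885, plus strand). After IFN-γ, Bmp2 had 2.33 and 2.19 CPM in CKO libraries, against 0.0828 and 0.144 CPM in WT libraries. After IL-4 it had 3.54 and 1.88 CPM in CKO libraries and 0.386 and 0.608 CPM in WT libraries. Untreated, it had 5.58 and 3.58 CPM in CKO libraries, against 0.315 and 0.546 CPM in WT libraries. Every CKO library was above every WT library of any condition, and untreated CKO library 1 was the highest of the 12. The log2 fold change of CKO over WT was 4.24 ± 0.56 after IFN-γ, 2.38 ± 0.41 after IL-4 and 3.38 ± 0.40 untreated, and the last was 3.05 without library 1 of either untreated group. The raw counts behind these values were 59 to 147 reads in CKO libraries and 2 to 18 reads in WT libraries. In whole cultures, fewer cells that express a gene and less RNA per cell cannot be told apart.

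The untreated CKO libraries took part in the choice of Bmp2 as higher in CKO, so a fall from them was favoured in advance. The p-values of Bmp2 below therefore carry limited weight. In CKO macrophages given IFN-γ, Bmp2 was lower, with a log2 change against untreated cells of -1.01 ± 0.32 (adjusted p = 0.037, edgeR quasi-likelihood test). This call was lost without untreated CKO library 1 (-0.68, adjusted p = 0.221), without either CKO library given IFN-γ (adjusted p = 0.128 without library 1 and 0.179 without library 2), without WT IL-4 library 2 (adjusted p = 0.0503) and in DESeq2 (adjusted p = 0.0556). In WT macrophages the Bmp2 value after IFN-γ was -1.86 ± 0.72 (adjusted p = 0.0866), and its libraries lay below the untreated ones. With IL-4 the log2 change of Bmp2 was -0.76 ± 0.31 in CKO cells (adjusted p = 0.103) and 0.25 ± 0.53 in WT cells (adjusted p = 0.834). The CKO value with IL-4 passed without untreated CKO library 2 (-1.07) or CKO IL-4 library 1 (-1.30), and with no filter on low counts it passed, as did the WT value after IFN-γ. The order of group means was CKO untreated, CKO IL-4, CKO IFN-γ, WT IL-4, WT untreated and WT IFN-γ. Libraries overlapped between CKO IL-4 and CKO IFN-γ and between WT IL-4 and WT untreated.

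**Figure D1:**
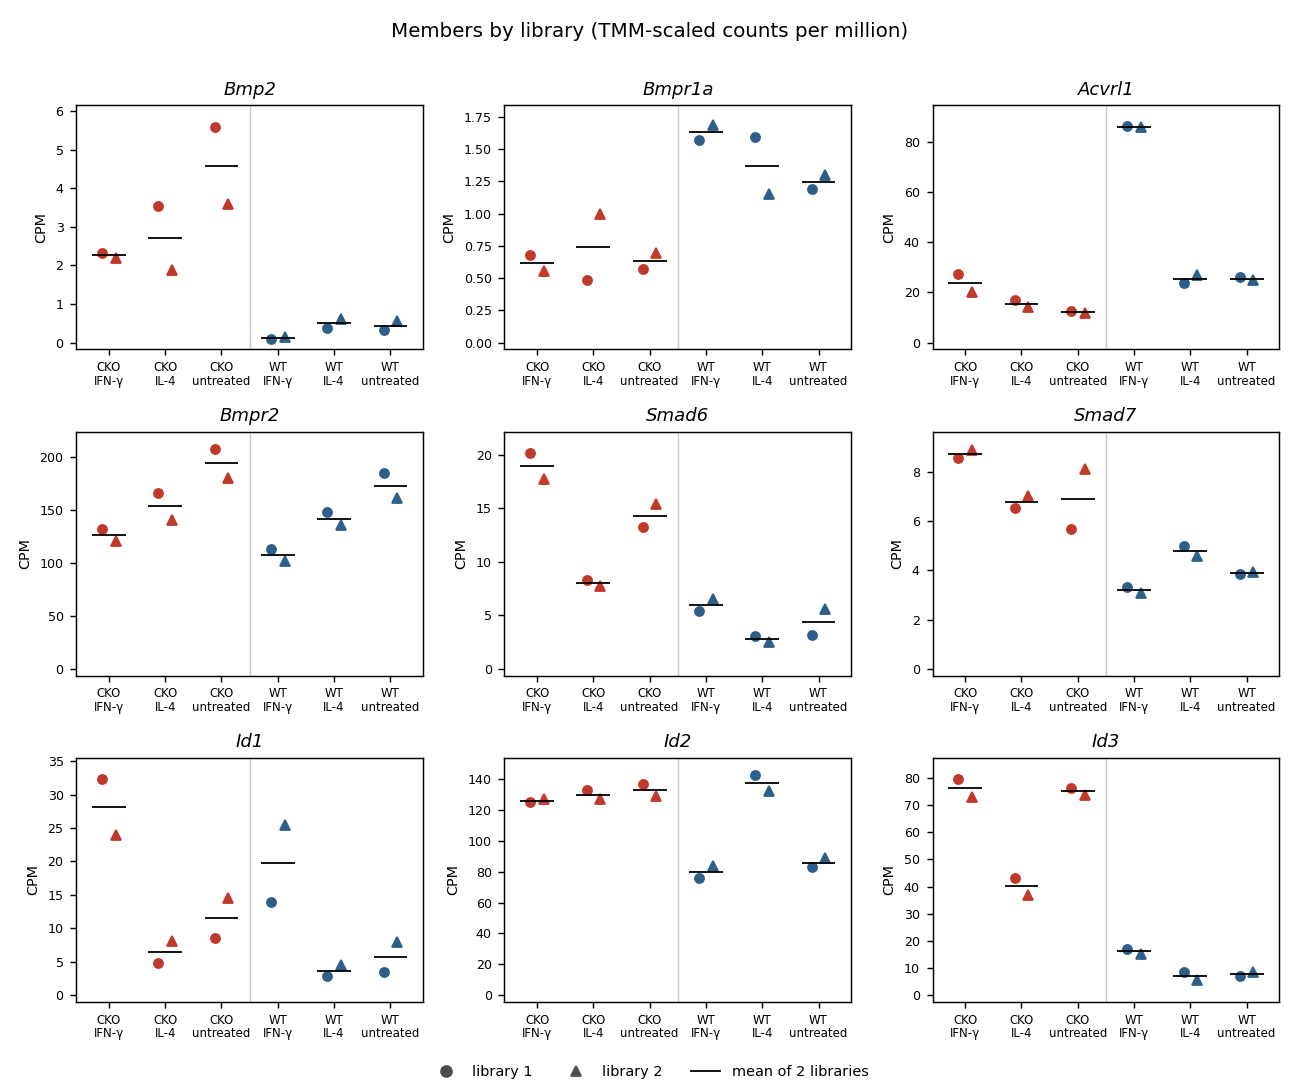
Level of each member in every library, as TMM-scaled CPM on a linear axis that starts at 0, for the 3 CKO groups (red) left of the 3 WT groups (blue); circles are library 1, triangles library 2, and the line is the mean of both. Bmp2, Smad6, Smad7 and Id3 lie higher in all CKO libraries than in all WT libraries, Bmpr1a lies lower in all of them, and Acvrl1 reaches 86.3 and 86 CPM in WT libraries given IFN-γ.

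The receptor genes did not move together. Bmpr1a, a type I receptor for BMP2, was scarce, with 14 to 34 raw counts in CKO libraries and 33 to 47 in WT libraries. It had 0.677 and 0.558 CPM in CKO against 1.57 and 1.69 CPM in WT after IFN-γ. After IL-4 it had 0.485 and 0.996 CPM in CKO and 1.59 and 1.15 CPM in WT, and untreated 0.569 and 0.692 CPM in CKO against 1.19 and 1.3 CPM in WT. CKO was lower in all 3 conditions, by log2 changes of -1.40 ± 0.34 after IFN-γ, -0.84 ± 0.33 after IL-4 and -0.96 ± 0.34 untreated. The IL-4 value for Bmpr1a was -1.45 without CKO IL-4 library 2 and -0.44 without CKO IL-4 library 1. Neither cytokine changed Bmpr1a past the test in either genotype, with log2 values between -0.04 and 0.39.

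Acvrl1, a type I receptor best known from endothelial cells, where it binds circulating BMPs, rose with IFN-γ in both genotypes. It had 27.2 and 20.2 CPM in CKO libraries given IFN-γ, against 12.4 and 11.6 CPM in untreated CKO libraries, a log2 change of 0.98 ± 0.15 (adjusted p = 0.000363). In WT it had 86.3 and 86 CPM after IFN-γ, against 26 and 24.8 CPM untreated, a log2 change of 1.76 ± 0.14 (adjusted p = 2.37e-06). Both calls held under the 19 alternatives run. The difference of these responses, CKO minus WT, was -0.78 ± 0.20 on the log2 scale (unadjusted p = 0.00245, adjusted p = 0.0726), and DESeq2 gave it an adjusted p of 0.0217. It also passed without CKO IFN-γ library 1 (-1.05, adjusted p = 0.0381) and with no filter. After IL-4, Acvrl1 had 16.9 and 14.1 CPM in CKO and 23.9 and 26.9 CPM in WT, and neither response passed the test. CKO lay below WT in each condition, by -1.86 ± 0.14 after IFN-γ, -0.71 ± 0.15 after IL-4 and -1.08 ± 0.15 untreated. Of 8 endothelial markers Cdh5, Tek, Emcn and Tie1 were at or near 0 in all libraries. The summed level of the list was 70.5 to 80.3 CPM in CKO and 83.9 to 111 CPM in WT after IFN-γ, mostly from Vwf. After IL-4 the sum was 204 to 316 CPM in CKO and 299 to 315 CPM in WT, where libraries overlapped. Untreated it was 119 to 122 CPM in CKO and 161 to 170 CPM in WT.

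Bmpr2, the type II receptor kinase, was well measured, with 2737 to 6258 counts per library. IFN-γ lowered it in CKO, to 132 and 121 CPM against 208 and 180 CPM untreated (log2 -0.62 ± 0.12, adjusted p = 0.00219). It also fell in WT, to 113 and 102 CPM against 185 and 161 CPM untreated (-0.68 ± 0.12, adjusted p = 0.00116). The difference between these responses was 0.06 ± 0.17, with an adjusted p of 0.931. After IL-4, Bmpr2 had 166 and 141 CPM in CKO and 148 and 136 CPM in WT, with log2 values against untreated cells of -0.34 ± 0.12 (adjusted p = 0.0596) and -0.29 ± 0.12 (adjusted p = 0.162), both short of the threshold. The CKO value passed without untreated CKO library 2 or CKO IL-4 library 1, and the WT value with only the compared groups. Between genotypes Bmpr2 differed by 0.23 ± 0.12 after IFN-γ, 0.11 ± 0.12 after IL-4 and 0.17 ± 0.12 untreated. Bmpr1a lies on chromosome 14 (34410734 to 34503341, minus strand), Acvrl1 on chromosome 15 (101128522 to 101145336, plus strand) and Bmpr2 on chromosome 1 (59763400 to 59879014, plus strand), all on GRCm38. Exons of Bmpr1a and Acvrl1 overlap those of Gm17110 and Gm16031 over 290 and 127 bases, and both overlapping genes had 0 counts.

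The inhibitory Smad gene Smad6 was higher in CKO in all conditions. It had 20.2 and 17.7 CPM in CKO against 5.43 and 6.48 CPM in WT after IFN-γ. With IL-4 it had 8.25 and 7.74 CPM in CKO against 3.04 and 2.47 CPM in WT, and untreated 13.2 and 15.4 CPM in CKO against 3.15 and 5.63 CPM in WT. No CKO library reached down to a WT library, and the log2 fold change of Smad6 was close to the same in each condition, 1.67 ± 0.22 after IFN-γ, 1.55 ± 0.24 after IL-4 and 1.70 ± 0.22 untreated. IL-4 lowered Smad6 in CKO by a log2 change of -0.84 ± 0.21 (adjusted p = 0.0159), a call lost without CKO IL-4 library 2 (adjusted p = 0.0997). In WT the IL-4 value of Smad6 was -0.69 ± 0.25 (adjusted p = 0.114), and the difference between the responses was -0.15 ± 0.33 (adjusted p = 0.934). The IFN-γ values, 0.41 ± 0.21 in CKO and 0.44 ± 0.23 in WT, did not pass. In WT, Smad6 passed with IL-4 without untreated WT library 1 (-1.05) and with no filter, and with IFN-γ without untreated WT library 2 (0.91).

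Smad7 was higher in CKO by less. It had 8.58 and 8.88 CPM in CKO and 3.31 and 3.09 CPM in WT after IFN-γ. After IL-4 the values were 6.55 and 7.03 CPM in CKO and 4.97 and 4.59 CPM in WT, and untreated 5.69 and 8.13 CPM in CKO and 3.84 and 3.92 CPM in WT. The groups did not overlap, and the log2 fold changes were 1.45 ± 0.18 after IFN-γ, 0.51 ± 0.18 after IL-4 and 0.84 ± 0.18 untreated. No cytokine response of Smad7 passed the test in either genotype. After IFN-γ the values were 0.33 ± 0.17 in CKO and -0.28 ± 0.19 in WT, and their difference, 0.61 ± 0.25, had an unadjusted p of 0.0341 and an adjusted p of 0.325. Without untreated CKO library 2 the CKO value (0.61, adjusted p = 0.0168) and the difference (0.87, adjusted p = 0.0455) passed. Smad6 lies on chromosome 9 (GRCm38, 63953076 to 64022059, minus strand) and Smad7 on chromosome 18 (75367529 to 75395935, plus strand).

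Among the Id genes, Id3 had the widest gap between genotypes. After IFN-γ it had 79.5 and 73.1 CPM in CKO, against 17.1 and 15.1 CPM in WT. After IL-4 it had 43.2 and 36.9 CPM in CKO and 8.35 and 5.61 CPM in WT. Untreated it had 76.5 and 73.8 CPM in CKO against 6.99 and 8.39 CPM in WT. The lowest CKO library, at 36.9 CPM, was above the highest WT library, at 17.1 CPM. The log2 fold change of Id3 was 2.25 ± 0.17 after IFN-γ, 2.54 ± 0.17 after IL-4 and 3.29 ± 0.17 untreated.

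The untreated libraries also took part in the choice of Id3, so a fall in CKO and a rise in WT were favoured in advance. The p-values of Id3 therefore carry limited weight. With IL-4, Id3 was lower in CKO by a log2 change of -0.91 ± 0.16 (adjusted p = 0.00177), while the WT value was -0.16 ± 0.18 (adjusted p = 0.659). With IFN-γ, Id3 was higher in WT by 1.06 ± 0.17 (adjusted p = 0.000617), while the CKO value was 0.02 ± 0.15 (adjusted p = 0.937). Both calls held under all 19 alternatives. The difference of the responses, CKO minus WT, was -1.04 ± 0.23 for IFN-γ and -0.75 ± 0.24 for IL-4. Since the genotype difference of Id3 chose the set and these values share its libraries, they are given without a test.

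Id2 was high in every group, and IL-4 raised it in WT. In WT it had 143 and 132 CPM after IL-4, against 82.8 and 89 CPM untreated, a log2 change of 0.68 ± 0.09 (adjusted p = 0.000431) that held under all 19 alternatives. In CKO it had 133 and 127 CPM after IL-4, against 137 and 129 CPM untreated, a value of -0.03 ± 0.09 (adjusted p = 0.824). Of the WT libraries given IL-4, that at 132 CPM lay among the CKO libraries and that at 143 CPM above them all, and both untreated WT libraries lay below them. The difference between the IL-4 responses of Id2, CKO minus WT, was -0.71 ± 0.13 (unadjusted p = 0.000149, adjusted p = 0.151), and DESeq2 gave it an adjusted p of 0.00208. It also passed without untreated CKO library 2 (adjusted p = 0.028) and with no filter. IFN-γ left Id2 at 125 and 127 CPM in CKO and 76 and 83.8 CPM in WT, with log2 values of -0.08 ± 0.09 and -0.11 ± 0.09 that did not pass. CKO over WT was 0.66 ± 0.09 after IFN-γ, -0.08 ± 0.09 after IL-4 and 0.63 ± 0.09 untreated.

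Id1 was higher after IFN-γ in both genotypes, with a call in WT and a CKO value that lay close to the threshold, and its libraries spread widely. It had 32.3 and 24 CPM in CKO given IFN-γ, against 8.54 and 14.5 CPM untreated, a log2 value of 1.28 ± 0.43 (adjusted p = 0.055). That CKO value passed under 9 of 19 alternatives, among them only the compared groups (adjusted p = 0.0205), a mean CPM of at least 5 (adjusted p = 0.0375), no filter, and the leaving out of any 1 untreated or IFN-γ WT library. In WT it had 14 and 25.5 CPM after IFN-γ, against 3.39 and 7.91 CPM untreated, a log2 change of 1.81 ± 0.46 (adjusted p = 0.0173). That WT call was lost without WT untreated library 1 (1.32, adjusted p = 0.106), without WT IFN-γ library 2 (1.31, adjusted p = 0.119) and with only the compared groups in the fit (adjusted p = 0.0767), and the value was 2.54 without WT untreated library 2. IL-4 gave 4.78 and 8.12 CPM in CKO and 2.9 and 4.46 CPM in WT, and neither response passed except with no filter on low counts, where both did. CKO over WT was 0.51 ± 0.42 after IFN-γ, where the libraries overlapped, 0.79 ± 0.50 after IL-4 and 1.03 ± 0.46 untreated, the last ranging from 0.55 to 1.76 when single libraries were left out. Id1 lies on chromosome 2 (152736251 to 152737410, plus strand), Id2 on chromosome 12 (25093799 to 25097140, minus strand) and Id3 on chromosome 4 (136143497 to 136145755, plus strand), on GRCm38.

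Promoter sequences from RefSeq (GRCm38.p6) were at hand for 5 of the 9 members, Bmpr1a, Bmpr2, Smad6, Id2 and Id3. Shown are Smad6 and Id3, which were higher in CKO in all conditions, and Id2, which was not after IL-4, from 250 bases before to 20 bases after the start site, 5′ to 3′, with motif matches in capitals. Smad6 covers chr9:64022040-64022309 (minus strand), Id2 covers chr12:25096073-25096342 (minus strand) and Id3 covers chr4:136143572-136143841 (plus strand).
Smad6: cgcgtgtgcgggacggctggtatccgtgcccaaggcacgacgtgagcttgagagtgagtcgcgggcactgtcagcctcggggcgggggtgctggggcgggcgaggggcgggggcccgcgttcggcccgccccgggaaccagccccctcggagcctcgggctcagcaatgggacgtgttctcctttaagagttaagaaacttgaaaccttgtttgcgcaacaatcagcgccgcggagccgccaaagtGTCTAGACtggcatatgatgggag
Id2: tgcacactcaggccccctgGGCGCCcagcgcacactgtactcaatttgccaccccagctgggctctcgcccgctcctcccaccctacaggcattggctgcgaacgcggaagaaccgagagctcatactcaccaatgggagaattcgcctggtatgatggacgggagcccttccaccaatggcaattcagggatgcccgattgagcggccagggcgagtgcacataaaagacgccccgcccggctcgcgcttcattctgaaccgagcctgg
Id3: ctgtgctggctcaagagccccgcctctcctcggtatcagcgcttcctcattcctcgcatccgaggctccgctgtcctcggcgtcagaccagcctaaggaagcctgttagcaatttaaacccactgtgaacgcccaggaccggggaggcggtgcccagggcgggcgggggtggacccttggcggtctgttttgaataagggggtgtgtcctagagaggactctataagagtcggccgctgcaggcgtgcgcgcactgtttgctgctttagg
The search covered 250 bases before to 50 after each start site on both strands. The palindromic Smad box GTCTAGAC stood in Smad6, starting 4 bases before the start site, and in 0.213% of 32851 mouse promoters of this length. GGCGCC, a GC-rich box of BMP-responsive promoters, stood in Id2 (at -231), Bmpr1a (at -198) and Bmpr2 (at -105), and in 11.9% of all promoters. None of the 5 promoters held TGACGTCA, the cAMP response element (1.79% of all promoters), GAAANNGAAA, an interferon-stimulated core (3.44%), GGAANNGAAA, an Ets-IRF composite (2.72%), or TTCNNNNGAA, a STAT6-type site (6.95%). No member's window had 2 matches, and the Id3 window had none of these motifs. The windows of Id2, Id3, Bmpr1a and Bmpr2 lie inside the gene spans given above. Sequence before the outer ends of those spans was not searched. A match describes the letters in the window and is not a measured binding site.

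**Figure D2:**
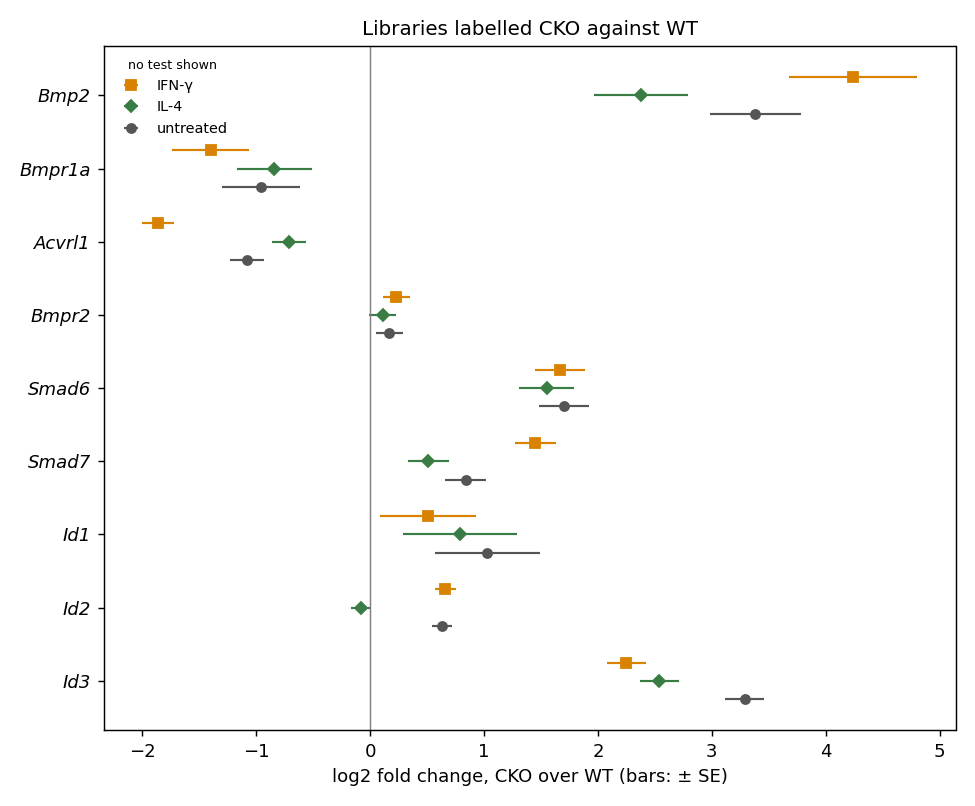
Log2 fold change of CKO over WT for each member after IFN-γ (squares), after IL-4 (diamonds) and untreated (circles), with SE bars and a line at 0; no test is shown because these contrasts chose the set. Bmp2 and Id3 lie between 2.25 and 4.24, Smad6 between 1.55 and 1.70, Bmpr2 near 0, and Bmpr1a and Acvrl1 below 0.

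Counted over the members, CKO and WT libraries did not overlap for 8 of 9 genes after IFN-γ, 7 of 9 after IL-4 and 8 of 9 untreated. The same held for 63.0%, 47.8% and 59.4% of all genes tested in those conditions, in that order, and nothing is read from the count because these contrasts chose the set. The sum of 9 neutrophil markers, which include S100a8, S100a9, Elane and Mpo, was 159 to 376 CPM in CKO libraries and 30 to 66.5 CPM in WT libraries, with no gene of the list at 0 in either genotype. S100a9 and S100a8 made up much of it, with means of 150 and 131 CPM in CKO and 20.9 and 14.6 CPM in WT after IFN-γ. The sum of 8 dendritic cell markers was 8.4 to 10.5 CPM in CKO and 50.8 to 60.2 CPM in WT after IFN-γ. Clec9a had the highest mean of that list over the 12 libraries, 9.12 CPM. After IL-4 the dendritic sum was higher in CKO, with 10.4 to 11.3 CPM against 7.77 to 8.64 CPM in WT. Untreated libraries overlapped for it, with 2.31 to 3.68 CPM in CKO and 2.08 to 2.73 CPM in WT. The sum of 7 erythroid and megakaryocyte markers, mostly Pf4, was 53 to 56.3 CPM in CKO and 109 to 138 CPM in WT after IFN-γ, 88.2 to 89.5 CPM in CKO and 152 to 165 CPM in WT after IL-4, and 130 to 140 CPM in CKO and 211 to 254 CPM in WT untreated. It was thus lower in CKO without overlap in each condition, and lower after IFN-γ than untreated in both genotypes. Lymphoid, stromal and mast cell lists stayed below 4 CPM in all libraries. The part of these cell types in the member values was not tested.

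Against untreated cells, 3 of 9 members changed with IFN-γ in CKO (Acvrl1 up, Bmp2 and Bmpr2 down), where 26.6% of all genes passed. With IFN-γ in WT it was 4 of 9 (Acvrl1, Id1 and Id3 up, Bmpr2 down), where 24.2% passed. IL-4 changed 2 of 9 in CKO (Smad6 and Id3, both down), where 22.5% passed, and 1 of 9 in WT (Id2, up), where 12.2% passed. These shares are close to those of all genes in CKO given IL-4 and in WT given IL-4. With IFN-γ they lie above those of all genes, but the counts behind them include calls of limited weight. These are Bmp2 in CKO and Id3 in WT, favoured in advance, and Id1 in WT, lost under some alternatives. Nothing is read about the members from these shares. The IL-4 count of 2 in CKO was 4 without untreated CKO library 2 or CKO IL-4 library 1 and 1 without CKO IL-4 library 2, and that of 1 in WT was 2 without untreated WT library 1. The 4 comparisons share the untreated libraries of each genotype with the contrast that chose the set. Falls of Bmp2 and Id3 in CKO and rises of them in WT were thus favoured in advance, and their calls carry limited weight in these counts.

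**Figure D3:**
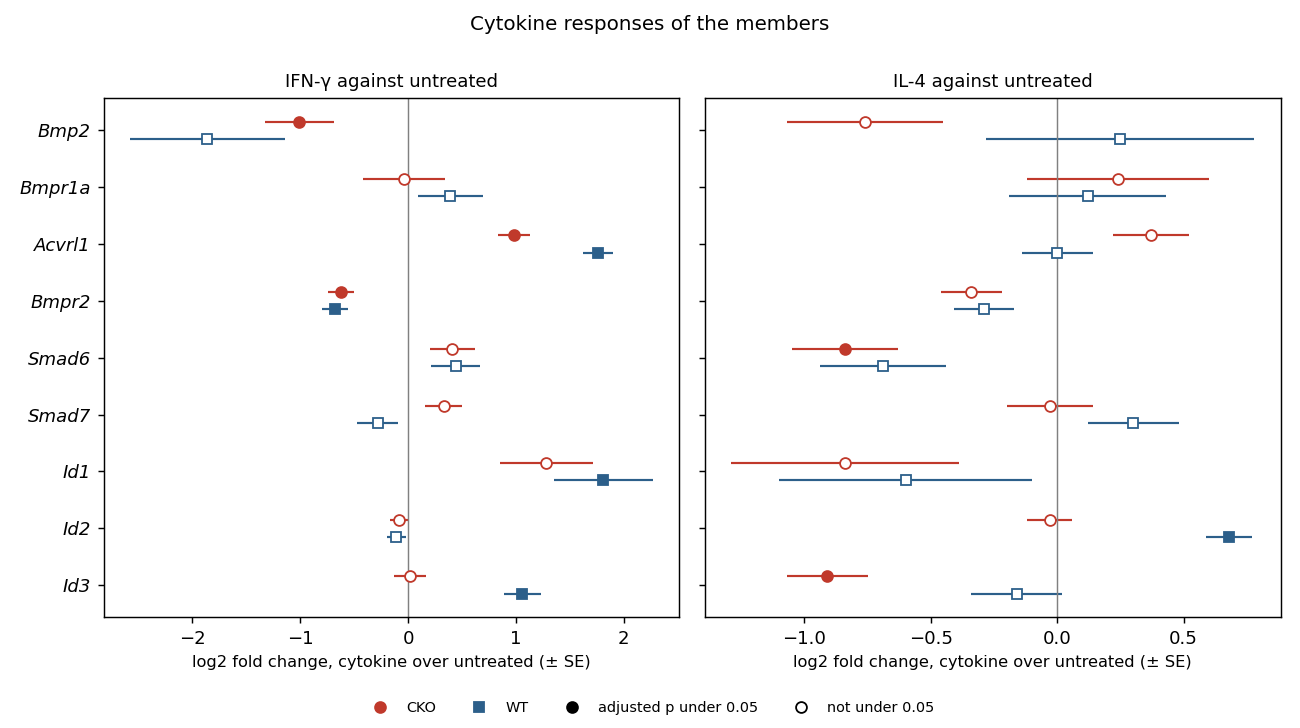
Log2 change with IFN-γ (left) and IL-4 (right) against untreated cells for each member, in CKO (red circles) and WT (blue squares), with SE bars; filled symbols have an adjusted p under 0.05. Acvrl1 and Bmpr2 are filled in both genotypes after IFN-γ, Bmp2 in CKO, Id1 and Id3 in WT; after IL-4, Smad6 and Id3 are filled in CKO and Id2 in WT.

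The difference between CKO and WT in these responses was tested for the 7 members other than Bmp2 and Id3. None of the 7 passed for IFN-γ in edgeR, where 2 (Acvrl1 and Smad7) had an unadjusted p under 0.05, DESeq2 called 1, and 2.72% of all genes passed. None of the 7 passed for IL-4 in edgeR, where 1 (Id2) had an unadjusted p under 0.05, DESeq2 called 1, and 0.0368% of all genes passed. Without untreated CKO library 2, 1 of the 7 passed for each cytokine, and without CKO IFN-γ library 1, 1 passed for IFN-γ. For Bmp2 the difference was 0.86 ± 0.80 for IFN-γ and -1.0 ± 0.62 for IL-4, given without a test.

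Of 87 other genes of the BMP and TGF-β pathways, 44 had enough counts to be tested. Of 19 BMP-family ligands besides Bmp2, only Gdf3 and Gdf15 passed the filter, and neither differed between genotypes in any condition. After IFN-γ, 11 of the 44 were higher in CKO and 2 lower, where 18.4% of all genes passed. After IL-4, 4 were higher and 0 lower, where 2.96% passed, and untreated 9 were higher and 5 lower, where 18.0% passed. Of all genes called, 1690 were higher in CKO and 1305 lower after IFN-γ, 229 and 253 after IL-4, and 1401 and 1526 untreated. Smad9, Hey1 and Hes1 passed the filter on low counts only through CKO libraries, so their calls in the pathway counts were favoured in advance. The median log2 fold change of the 44 was 0.23 after IFN-γ, 0.09 after IL-4 and 0.05 untreated, and that of all genes 0.02, -0.01 and 0.00. The untreated count of 14 was 6 with only the compared groups and without untreated CKO library 1, 5 and 8 without WT untreated libraries 1 and 2, and the count of 13 after IFN-γ was 5 to 8 without any 1 of its 4 libraries. After IL-4 the count of 4 was 2 without CKO IL-4 library 1 and 1 without either WT IL-4 library.

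Smad9, a receptor-activated Smad of the BMP branch, had nearly all its reads in CKO, at low counts. Smad9 passed the filter on low counts only through CKO libraries. A higher level in CKO was thus favoured in advance, and the p-values of Smad9 carry limited weight. It had 13 and 7 reads in CKO against 1 and 1 in WT after IFN-γ, a ratio of 9.71 with a 95% counting interval of 2.36 to 85.7 (adjusted p = 0.0145). After IL-4 it had 15 and 15 reads in CKO and 0 in both WT libraries, at least 7.99-fold higher when the 2 WT libraries together are set to a floor of 3 counts (adjusted p = 0.00812). Untreated it had 24 and 37 reads in CKO against 0 and 1 in WT, a ratio of 57.9 with an interval of 10 to 2320 (adjusted p = 0.000631). The IFN-γ call was lost without CKO IFN-γ library 1 or either WT IFN-γ library (adjusted p up to 0.126), and the IL-4 call without either WT IL-4 library (adjusted p up to 0.108). The untreated call held under every alternative, with only WT library 2 holding a read. The intervals and the floor cover counting error only. Of the 6 signal-carrying Smads, the only other to differ was Smad3 of the TGF-β branch, higher in CKO after IFN-γ by 1.12 ± 0.13 (adjusted p = 0.000166), with 26.5 and 24.2 CPM in CKO and 11.9 and 11.4 CPM in WT.

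Among receptors, Tgfbr1, the type I receptor for TGF-β, was higher in CKO by 0.71 ± 0.13 after IFN-γ, 0.65 ± 0.13 after IL-4 and 0.88 ± 0.13 untreated (adjusted p = 0.00311, 0.0212 and 0.00133). Untreated, the type II activin receptor gene Acvr2b was higher by 1.25 ± 0.31 (adjusted p = 0.0195), and the BMP type I receptor gene Acvr1 and the co-receptor gene Eng were lower by log2 changes of -0.73 ± 0.20 (adjusted p = 0.0269) and -0.71 ± 0.15 (adjusted p = 0.0102). Eng rose with IFN-γ in both genotypes, by 2.53 ± 0.16 in CKO (adjusted p = 1.82e-07) and 1.73 ± 0.15 in WT (adjusted p = 4.44e-06), as Acvrl1, its partner receptor in endothelial cells, did. After IFN-γ, Acvr1b, an activin type I receptor gene, was higher in CKO (0.58 ± 0.12, adjusted p = 0.00727). The secreted BMP-binding protein gene Twsg1 was lower in CKO after IFN-γ (-0.51 ± 0.12, adjusted p = 0.0119) and untreated (-0.55 ± 0.12, adjusted p = 0.0121). The Tgfbr1 calls after IFN-γ and untreated and both Eng responses to IFN-γ held under every alternative. The Tgfbr1 call after IL-4 was lost without CKO IL-4 library 1 or either WT IL-4 library, Acvr1 without any 1 of the 4 untreated libraries, Acvr2b without untreated CKO library 2 or either untreated WT library and in DESeq2, and Eng and Twsg1 untreated without library 1 of either genotype. With only the compared groups in the fit, Acvr1, Acvr2b, Eng and Twsg1 untreated did not pass (adjusted p = 0.0583, 0.0754, 0.0592 and 0.105). Acvr1b was lost without CKO IFN-γ library 1 or WT IFN-γ library 2, and Twsg1 after IFN-γ without either CKO IFN-γ library or WT IFN-γ library 1.

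Among Smad regulators, Skil, a repressor of Smad-driven transcription, was higher in CKO in every condition. It had 185 and 166 CPM in CKO against 93.3 and 86.1 CPM in WT after IFN-γ, 107 and 85.6 CPM in CKO against 36.8 and 29.5 CPM in WT after IL-4, and 170 and 119 CPM in CKO against 54.7 and 50.6 CPM in WT untreated. The log2 fold changes were 0.97 ± 0.17, 1.54 ± 0.17 and 1.46 ± 0.17 (adjusted p = 0.00238, 0.000736 and 0.000338). Of other BMP-induced genes, Runx2, a transcription factor of bone formation, was higher in CKO by 1.44 ± 0.15 after IFN-γ, 0.86 ± 0.14 after IL-4 and 1.0 ± 0.14 untreated (adjusted p = 8.34e-05, 0.00531 and 0.000856). Junb was higher after IFN-γ (0.83 ± 0.25, adjusted p = 0.0464) and untreated (1.08 ± 0.26, adjusted p = 0.0184). Hey1, at 41 and 25 reads in CKO against 2 and 6 in WT, was higher untreated (2.97 ± 0.58, adjusted p = 0.00664). Hes1, at 33 and 37 reads in CKO against 8 and 1 in WT, was higher after IFN-γ (2.87 ± 0.65, adjusted p = 0.0103). Hey1 and Hes1 passed the filter on low counts only through CKO libraries. A higher level in CKO was thus favoured in advance, and their calls carry limited weight. Pmepa1, an inhibitor of TGF-β signalling, had 12 and 16 reads in CKO against 3 and 1 in WT after IFN-γ (2.69 ± 0.56, adjusted p = 0.00795). The 3 Skil calls and the Runx2 calls after IFN-γ and untreated held under every alternative. Runx2 after IL-4 was lost without CKO IL-4 library 1 or either WT IL-4 library, Hey1 without library 1 of either untreated group, Hes1 without either CKO IFN-γ library or WT IFN-γ library 2, and Pmepa1 without library 2 of either IFN-γ group. Single libraries also moved these low-count values. Hey1 was 2.36 without untreated CKO library 1 and 3.91 without untreated WT library 2, Hes1 was 5.03 and 2.0 without WT IFN-γ libraries 1 and 2, and Pmepa1 was 3.72 and 2.04 without those same 2 libraries. Junb untreated was lost without untreated CKO library 1 or either untreated WT library and with only the compared groups, and Junb after IFN-γ under 9 of 18 alternatives, each a single library left out (all but untreated CKO libraries 1 and 2 and CKO IL-4 library 2).

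**Figure D4:**
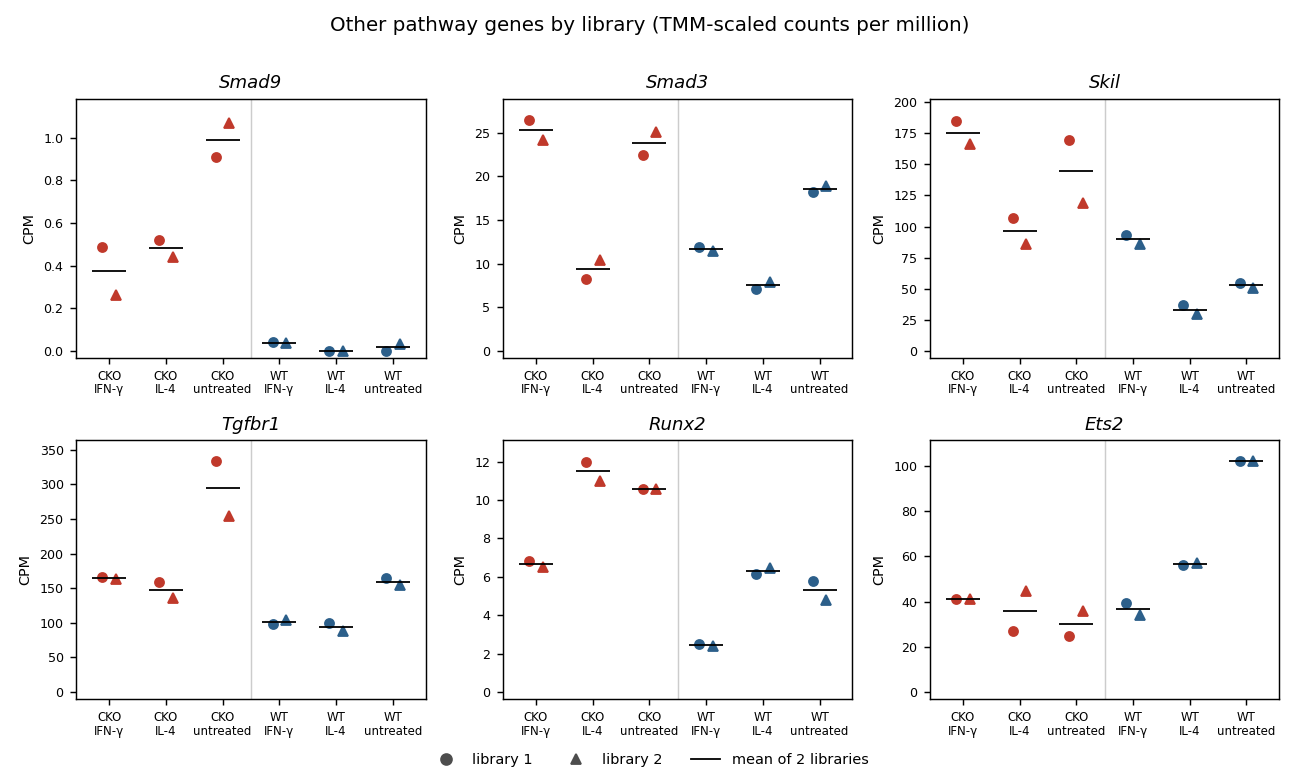
Level of 6 other pathway genes in every library, as TMM-scaled CPM on a linear axis from 0, for the 3 CKO groups (red) left of the 3 WT groups (blue); circles are library 1, triangles library 2, lines are means. Skil, Tgfbr1 and Runx2 lie higher in CKO than in WT within each condition, Smad9 is nearly absent from WT, and Ets2 reaches 102 CPM in both untreated WT libraries.

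The proteins that Id factors bind were also followed. Of the 3 E protein genes, Tcf3 was lower in CKO after IFN-γ (-0.44 ± 0.13, adjusted p = 0.0431), Tcf4 was higher in CKO untreated (0.47 ± 0.10, adjusted p = 0.0104), and Tcf12 did not differ between genotypes past the test. IFN-γ lowered Tcf12 in both genotypes, by -0.63 ± 0.09 in CKO (adjusted p = 0.000377) and -0.55 ± 0.09 in WT (adjusted p = 0.000995). Ets2, an Ets factor, had 24.6 and 35.7 CPM in untreated CKO against 102 CPM in both untreated WT libraries (-1.75 ± 0.21, adjusted p = 0.000502). The Ets2 call and both Tcf12 calls held under every alternative, Tcf4 untreated was lost without untreated CKO library 1 or either untreated WT library and with only the compared groups, and Tcf3 was lost when any 1 of 7 libraries was left out (both CKO IFN-γ, WT IFN-γ library 1, both untreated WT and both WT IL-4). Of all 16292 genes, edgeR called a genotype difference in 2.72% for IFN-γ and 0.0368% for IL-4. An unadjusted p under 0.05 was found for 2127 and 981 of them. Among the 44 pathway genes, edgeR called a genotype difference in the IFN-γ response for Ets2 and Tcf4, with 7 genes at an unadjusted p under 0.05 and 5 called by DESeq2. For IL-4 edgeR called none of the 44, with 7 genes at an unadjusted p under 0.05 and 0 called by DESeq2. Without untreated CKO library 2 it called 5 for each cytokine.

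Over all genes, IFN-γ raised 2396 and lowered 1937 in CKO, and raised 2018 and lowered 1917 in WT. IL-4 raised 1828 and lowered 1836 in CKO, and raised 1081 and lowered 911 in WT. With the cytokines, 9 of the 44 rose and 9 fell after IFN-γ in CKO, where 26.6% of all genes passed. In WT 7 rose and 11 fell after IFN-γ, where 24.2% passed. After IL-4, 5 rose and 12 fell in CKO, where 22.5% passed, and 3 rose and 9 fell in WT, where 12.2% passed. The IL-4 count of 17 in CKO was 6 with only the compared groups, 9 without untreated CKO library 1 and 8 without CKO IL-4 library 2, and that of 12 in WT was 4 to 6 without any 1 of the untreated or IL-4 WT libraries. Pmepa1 rose with IL-4 in CKO, from 2 and 3 reads untreated to 74 and 87 (log2 4.89 ± 0.42, adjusted p = 1.82e-05). In WT it rose from 0 reads in both untreated libraries to 27 and 54 (adjusted p = 3.53e-05), so no fold is given. Both Pmepa1 calls held under the 18 alternatives run for it. Crim1, a membrane protein that binds BMPs, rose with IFN-γ by 2.20 ± 0.16 in CKO (adjusted p = 9e-07) and 2.17 ± 0.16 in WT (adjusted p = 1.08e-06). Bambi, a decoy receptor, fell with IFN-γ in both, by -0.58 ± 0.13 in CKO (adjusted p = 0.00549) and -0.75 ± 0.13 in WT (adjusted p = 0.00107). IL-4 lowered Smad3 by -1.35 ± 0.13 in CKO (adjusted p = 2.94e-05) and -1.30 ± 0.14 in WT (adjusted p = 6.02e-05). It raised Smurf1, a ubiquitin ligase for BMP Smads, by 0.80 ± 0.10 in each genotype (adjusted p = 0.000131 in CKO and 0.000172 in WT). The Bambi call in CKO was lost without CKO IFN-γ library 1 (adjusted p = 0.0528), and the other calls of these 4 genes held under all 19 alternatives.

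Genes with a pattern most like a member were ranked over the 6 group means by the root mean square difference of log2 CPM after centring, among 11877 genes. The members, the 87 other pathway genes, pseudogenes and genes with Gm, Rik or clone names were left out. The ranking therefore does not compare the genes listed here with members or pathway genes. For Bmp2 they were Elane (0.33), Penk (0.39), Retnlg (0.50), Clec1a (0.56) and Ctsg (0.56). For Id3 they were Chst15 (0.24), S100a9 (0.30), Lcn2 (0.33), S100a8 (0.33) and Abca13 (0.36). S100a9 had 57 to 151 CPM in CKO libraries and 10.6 to 23.5 CPM in WT libraries, and Elane 2.57 to 4.25 CPM in CKO and 0.203 to 0.82 CPM in WT. Elane, S100a8 and S100a9 are also on the neutrophil list above. The group means of Bmp2 and Id3 hold the genotype gap that chose them. Genes much higher in CKO were thus favoured in both rankings, and their overlap with the neutrophil list carries limited weight. For Id2 they were Rpl39 and Scarna2 (both 0.11), and Mettl7a2, Prr13 and S100a1 (all 0.12). Ranked over the 12 libraries instead, 4 of the 5 genes were shared for Bmp2, 4 for Id3 and 1 for Id2.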

How the data were processed

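RNA was measured in 12 libraries of 6 groups. The authors deposited whole-number counts per gene, and the submitters' processing notes name HTSeq 0.6.1, Picard 1.97, TopHat2 2.0.13 and CASAVA 1.8.2 as tools, and mm10 and GRCh38 as builds, without roles. The strand setting and annotation release were not given in the sources used here. Reads of overlapping antisense genes cannot be told apart. The members and lists were chosen with earlier results of these data known. edgeR 4.0.16 (R 4.3.3) kept 16292 genes (filterByExpr, minimum count 10), scaled them by TMM and tested them by the robust quasi-likelihood F test in 1 fit of 6 group means with 6 residual degrees of freedom, with Benjamini-Hochberg adjustment over all 16292 genes at 0.05. The approximate SE divides the size of a log2 fold change by the root of its F. Of the identifiers, 40606 matched GENCODE M21 (GRCm38) with their version and 48058 without it. Bmpr1a and Id2 matched without version. Lengths are unions of exons. In each comparison, up to 4 genes per pathway list with an adjusted p under 0.05 could be named, with all 9 members, Irf8, Lyz2 and the 5 genes most like Bmp2, Id3 and Id2. Gdf3, Gdf15 and Tcf12 were named after their values were seen. The fit was tested on simulated counts. Alternatives were DESeq2 1.42.0, its size factors, other filters on low counts, only the compared groups, the library number as a block, and single libraries left out. The result of 1 promoter motif is not reported here.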

Additional observations from a re-analysis of the deposited data

Results flagged for a closer look

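2 pathway genes were picked out because their IFN-γ response differed between CKO and WT by a test of the difference itself. For Ets2 the difference of the responses, CKO minus WT, was 1.92 ± 0.30 on the log2 scale (edgeR quasi-likelihood test, adjusted p = 0.00735). Ets2 had 40.9 and 41 CPM in CKO given IFN-γ against 24.6 and 35.7 CPM in untreated CKO, and 39.3 and 33.9 CPM in WT given IFN-γ against 102 CPM in both untreated WT libraries. The call held under all 19 alternatives, with adjusted p up to 0.0436. For Tcf4 the difference was -0.65 ± 0.14 (adjusted p = 0.0361). Tcf4 had 76.6 and 73.7 CPM in CKO given IFN-γ against 125 and 104 CPM in untreated CKO, and 85.2 and 85.1 CPM in WT given IFN-γ against 83.8 and 81.3 CPM untreated. That call was lost under 10 of the 19 alternatives, with adjusted p from 0.00525 to 0.204 over all of them. The 10 were the fit with only the compared groups and the leaving out of any 1 library except untreated CKO library 2 and the CKO IL-4 libraries. Groups of 2 libraries were too small to test for a library far from the others.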

How the results depend on the processing

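No paired analysis could be taken from the design, because the labels do not say what the shared library numbers stand for. Deviations of same-numbered libraries from their group means correlated by 0.10 to 0.43 within genotype and by -0.01 to 0.26 across genotypes, a hint from the data only. With the number as a replicate block, members called with IL-4 were 4 in CKO (reported 2) and 2 in WT (reported 1), and 1 genotype difference in the IFN-γ response was called (reported 0). With that block within genotype the counts were 5, 2 and 1, and 1 genotype difference in the IL-4 response was called (reported 0). Members called with IFN-γ in CKO were 4 under either block (reported 3), with Id1 the member added (1.39 and 1.33), whose library 2 was the higher in 5 of 6 groups. With no filter on low counts the members called with IL-4 were 4 in CKO and 3 in WT, 1 genotype difference was called for each cytokine, and the pathway genes called after IL-4 were 7 (reported 4). DESeq2 also called 1 genotype difference for each cytokine. With only the compared groups, 6 pathway genes were called untreated (reported 14) and 2 members with IL-4 in WT. Libraries of a group differed by unequal amounts. The chi-square per gene between them was 85.7, 4.93 and 25.6 in CKO untreated, IFN-γ and IL-4. In WT it was 34, 38.7 and 4.71, in the same order. The main fit shares the spread over all groups. The cause of the changed counts was not tested. Pathway genes with a genotype difference in the IFN-γ response (reported 2) were 5 with DESeq2, with no filter and with either block, and 1 with only the compared groups, and those in the IL-4 response (reported 0) were 2 with no filter and with the block within genotype. Over all genes and all alternatives, genes called between CKO and WT were 1209 to 3987 after IFN-γ (reported 2995), 128 (without WT IL-4 library 2) to 1129 (no filter) after IL-4 (reported 482) and 836 (only the compared groups) to 5034 (without untreated CKO library 2) untreated (reported 2927). Those with IFN-γ were 2675 to 5818 in CKO and 2611 to 4993 in WT, those with IL-4 were 1216 to 5463 in CKO and 898 to 3562 in WT, and genotype differences were 137 to 1080 for IFN-γ and up to 329 (without untreated CKO library 2) for IL-4 (reported 6).

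Leaving out 1 library at a time, pathway genes called were 5 to 16 untreated, 5 to 17 after IFN-γ and 1 to 5 after IL-4. Members called were 1 to 4 with IL-4 in CKO, 1 to 2 with IL-4 in WT, and 0 to 1 for each genotype difference. The member log2 fold changes of CKO over WT kept their sign under all alternatives except Bmpr2 after IL-4 (-0.01 to 0.25), and Bmp2 ranged over 3.94 to 4.71 after IFN-γ, 1.86 to 2.80 after IL-4 and 3.05 to 3.83 untreated.

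Values near 0 that were not called changed sign. For Acvrl1 with IL-4 in WT (reported 0.00) they were -0.01 with DESeq2 and with its size factors, -0.02 with no filter and with a mean CPM of at least 5, -0.00 with only the compared groups, and -0.10 to 0.08 with single libraries left out. Other ranges with single libraries left out were, for IFN-γ in CKO, -0.22 to 0.11 (Bmpr1a) and -0.07 to 0.10 (Id3). For IL-4 in CKO they were -0.39 to 0.62 (Bmpr1a), -0.27 to 0.24 (Smad7) and -0.09 to 0.00 (Id2). For IL-4 in WT they were -0.17 to 0.68 (Bmp2), -0.12 to 0.34 (Bmpr1a), -1.09 to 0.12 (Id1) and -0.46 to 0.11 (Id3). For the genotype difference in the IFN-γ response they were -0.06 to 0.18 (Bmpr2), -0.50 to 0.33 (Smad6) and -0.04 to 0.10 (Id2), and in the IL-4 response -0.50 to 0.51 (Bmpr1a), -0.20 to 0.07 (Bmpr2), -0.61 to 0.22 (Smad6) and -0.95 to 0.27 (Id1). A mean CPM of at least 5 gave no value for Bmp2 and Bmpr1a. A lone library was assumed to vary like the other groups. Low counts limit Bmp2 in WT (2 to 18 reads), Bmpr1a (14 to 47) and Smad9.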
